A study of Mus musculus with 10 samples.

Results

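The conjugating enzymes are the glutathione, glucuronide and sulfo transferases. They were taken as every gene whose name begins with Gst and a letter, or with Mgst, Ugt or Sult and a digit, which gave 65 of the 24421 genes in the authors' deposited table. The rule reads names and no measured value, but the gene group itself was picked with earlier results of these data known. Of the 65 genes, 25 were glutathione transferases, 21 UDP-glucuronosyltransferases and 19 sulfotransferases, and 38 passed the authors' filter on low means and carried an adjusted p-value. The RNA came from whole olfactory epithelium, the sensory tissue of the nose, of untreated 6-month-old mice of the C57BL/6 background. The tissue was taken from 6 mice labelled Apoe4 and 4 labelled Apoe3, named for human alleles of apolipoprotein E, a lipid carrier, according to the series title. The labels do not say how the alleles were introduced, which promoter drives them or whether mouse Apoe was kept. The question is how the RNA of this tissue differs by allele.

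Conjugating enzymes attach a polar group to reactive or fat-soluble molecules, which can then leave the cell. Glutathione transferases add the tripeptide glutathione, UDP-glucuronosyltransferases add glucuronic acid from UDP-glucuronate, and sulfotransferases add sulfate from the donor PAPS. In olfactory epithelium these enzymes are known from the supporting (sustentacular) cells and Bowman glands, where they act on odorants and inhaled toxicants beside the cytochrome P450 enzymes.

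The authors' deposited table holds 1 mean normalized count per gene over all 10 libraries, 1 fold change and its error, so values per library are not used here and overlap between the groups cannot be shown. All log2 fold changes are Apoe4 over Apoe3 and had been shrunk towards 0 in the authors' model. Errors are their standard errors (SE) with 6 and 4 libraries. A change was called where the authors' DESeq2 test gave a p under 0.05 after Benjamini-Hochberg (BH) adjustment over all tested genes. Libraries held an estimated 14900000 to 20100000 assigned reads, if each had the same normalized total. The markers of the tissue were abundant in the authors' deposited table, with mean normalized counts of 113676 for Omp of mature neurons and 63585 for Cyp2g1 of sustentacular cells, whereas the liver marker Alb had 103. Mouse Apoe had a log2 fold change of -0.16 ± 0.10 there (BH-adjusted p = 0.579). Whether reads of the human alleles entered that count was not tested. Sex-linked genes also differed between the groups, with log2 fold changes of 6.41 for Xist and -3.72 for Eif2s3y in the authors' deposited table. Eif2s3y passed the authors' test (BH-adjusted p = 5.29e-282), and no p-value is given there for Xist. The labels give no sex, so allele and sex-linked difference cannot be told apart for any gene below. In bulk tissue, fewer cells of a type and less RNA per cell cannot be told apart either.

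Among the conjugating enzymes, 2 glutathione transferases fell in Apoe4, the cytosolic Gstm1 and the membrane-bound Mgst3, and none rose. That is 2 of 38 tested genes, beside 0.779% of all 16050 tested genes called, 0.455% lower and 0.324% higher. No UDP-glucuronosyltransferase or sulfotransferase passed the test. Without adjustment, 9 of the 38 had a p under 0.05 with a negative fold, against 5.76% of all tested genes, and 1 with a positive fold, against 4.54%. Of the 38, 33 had a negative fold, beside 48.9% of all tested genes. The median log2 fold change was -0.09 over the 38 and 0.00 over all tested genes. For 18 of the 38 the fold was smaller than its own SE.

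**Figure D1:**
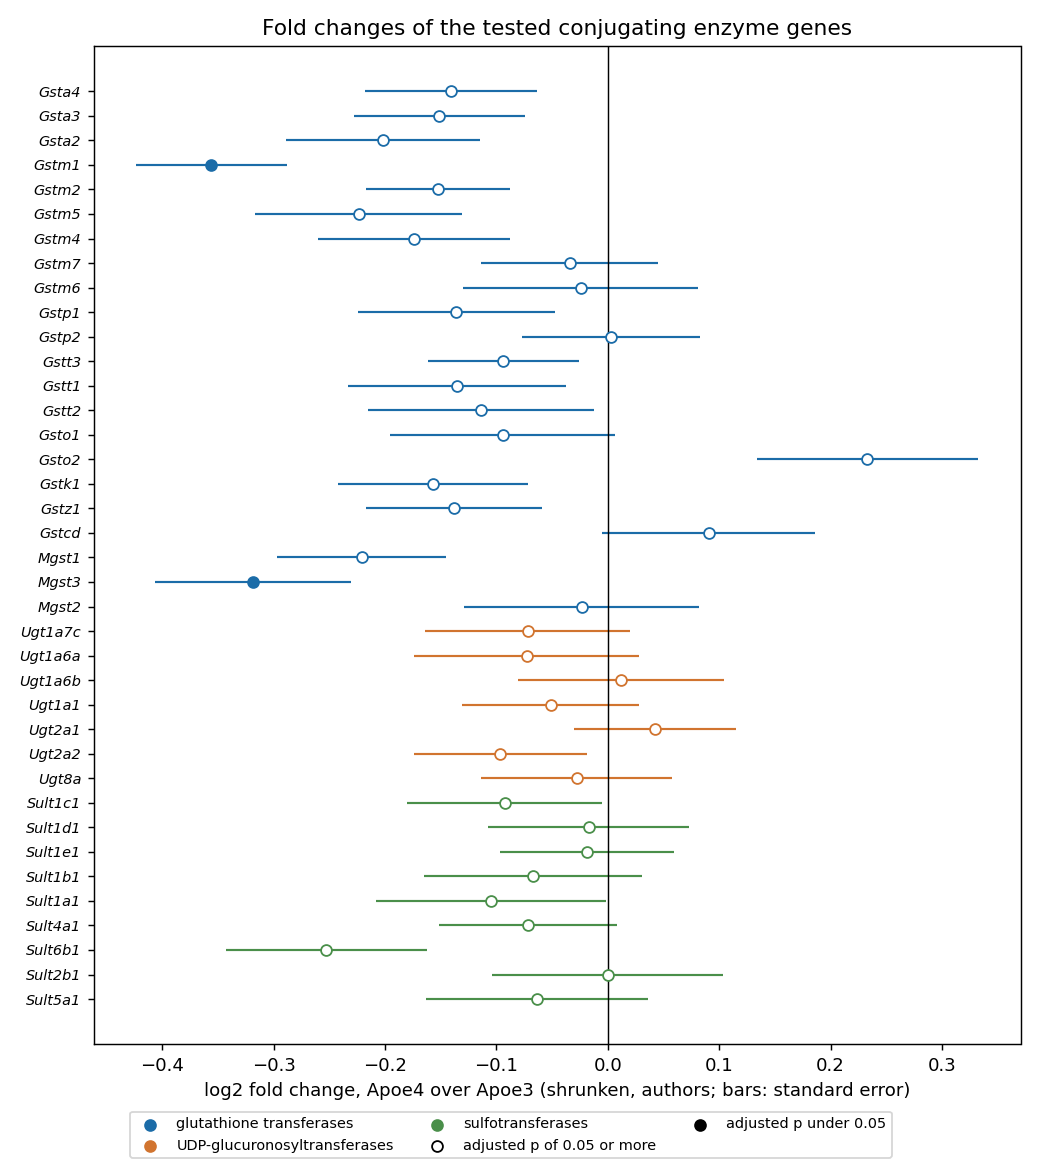
Log2 fold change (Apoe4 over Apoe3, shrunken, from the authors' deposited table) of each of the 38 tested genes, with bars of 1 SE, colours for the 3 enzyme types and filled points where the BH-adjusted p is under 0.05. Gstm1 at -0.36 and Mgst3 at -0.32 are the filled points, Gsto2 at 0.23 lies furthest to the right, and most of the others lie between -0.25 and 0.

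Levels were set by a few genes. Together the 65 genes held 0.608% of all normalized counts, and the 5 most abundant held 70.1% of that share. Per kilobase of the longest transcript, Ugt2a1 and Gstm1 stood highest, at 12640.5 and 12416.3 normalized counts per kilobase over all libraries. Ugt2a1 is the olfactory UDP-glucuronosyltransferase, and Gstm1 is a mu-class glutathione transferase. With the median transcript length of each gene in place of the longest, their order turned round, so neither can be placed first. Sult1c1, a cytosolic sulfotransferase, followed at 8165.69, then Gstm2 at 4826.44, Mgst1 at 4261.86 and Sult1d1 at 3223.98 normalized counts per kilobase. By this measure each of the 3 enzyme types had a member among the first 3. At the other end, 20 genes had means above 0 and under 10 normalized counts, and 7 were listed at 0.

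**Figure D2:**
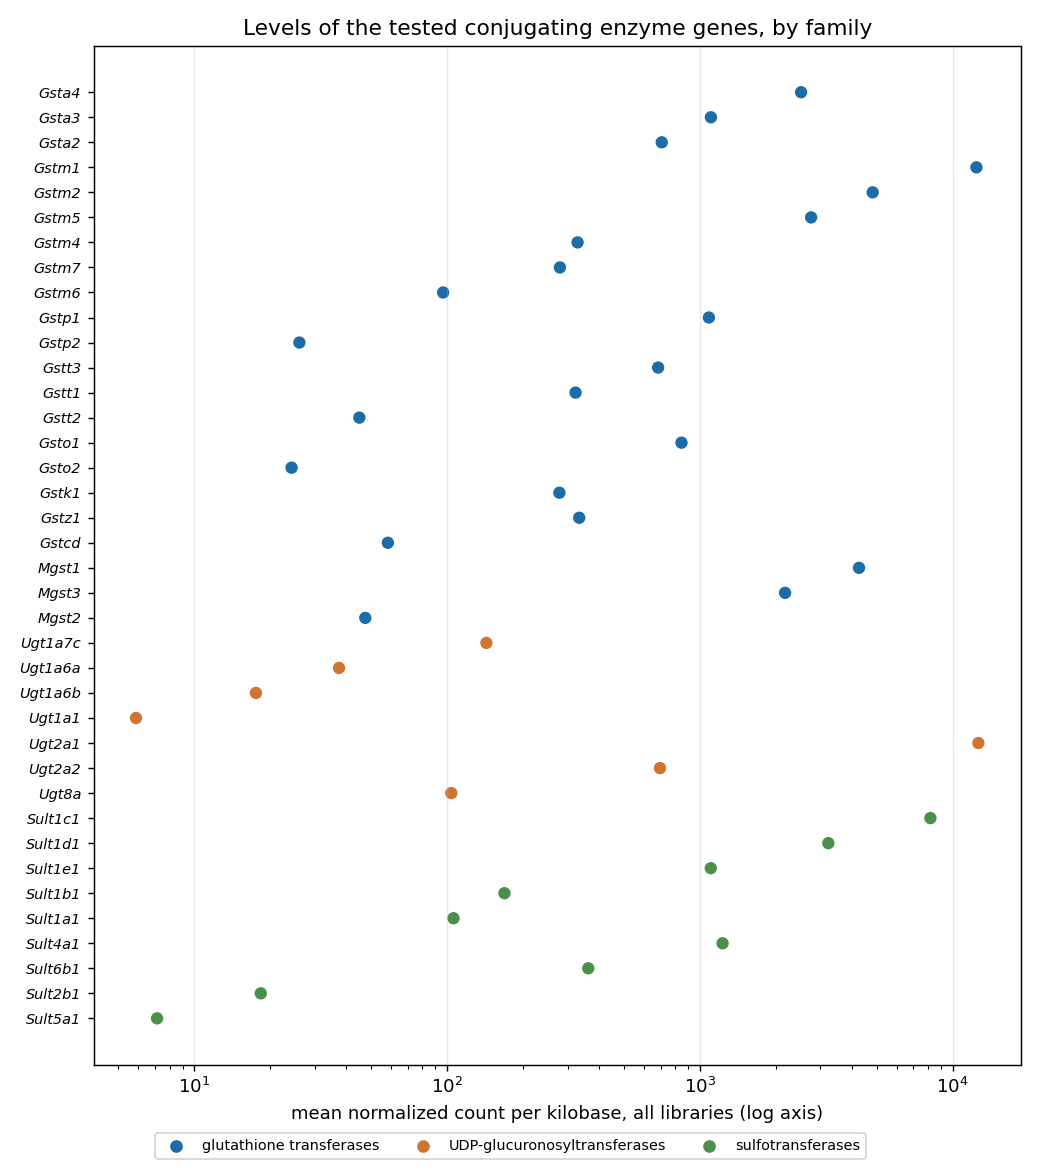
Mean normalized count per kilobase of the longest transcript over all libraries (log axis) for the 38 tested genes, ordered by family and then by level. Ugt2a1, Gstm1 and Sult1c1 lie highest, from 8165.69 to 12640.5, and Ugt1a1 and Sult5a1 lie lowest, at 5.89 and 7.14.

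The mu class holds the most abundant cytosolic glutathione transferases of this tissue. Gstm1 (chromosome 3, 108012250 to 108017973, GRCm38, protein coding) had a mean of 16004.6 normalized counts in the authors' deposited table. It fell in Apoe4, where the authors' deposited table gives a log2 fold change of -0.36 ± 0.07 (BH-adjusted p = 6.6e-05), a drop of 21.9% as a linear fold. The mean and the shrunken fold together imply 14393.9 normalized counts in Apoe4 and 18420.5 in Apoe3. Undoing the shrinkage approximately gave a log2 fold change of -0.40. Among all tested genes, 54 had a lower fold than Gstm1.

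The other mu-class genes were tested as well, apart from Gstm3. In the authors' deposited table Gstm5, known from brain and testis, stood at -0.22 ± 0.09 (BH-adjusted p = 0.355) and Gstm4 at -0.17 ± 0.09 (BH-adjusted p = 0.472). Gstm2 had a log2 fold change of -0.15 ± 0.06 there (BH-adjusted p = 0.373), while Gstm7 and Gstm6 stood at -0.03 ± 0.08 and -0.02 ± 0.11 (BH-adjusted p = 0.919 and 0.959). Thus 1 of 6 passed, and all 6 folds were negative. Gstm3 had a mean of 2.24 normalized counts in the authors' deposited table and was not tested.

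All 7 mu-class genes lie within 149.3 kilobases of chromosome 3. Along it, from Gstm5 at the low coordinate through Gstm7, Gstm6, Gstm3, Gstm2 and Gstm1 to Gstm4, the folds did not run in order, since Gstm7 and Gstm6 near 0 lie between Gstm5 and Gstm2. Of 12 other tested genes within 250 kilobases of the cluster, none passed the test and 3 had negative folds, with a median log2 fold change of 0.07 and a range from -0.14 for Psma5 to 0.20 for Sypl2 in the authors' deposited table. These neighbours were picked by position alone.

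**Figure D3:**
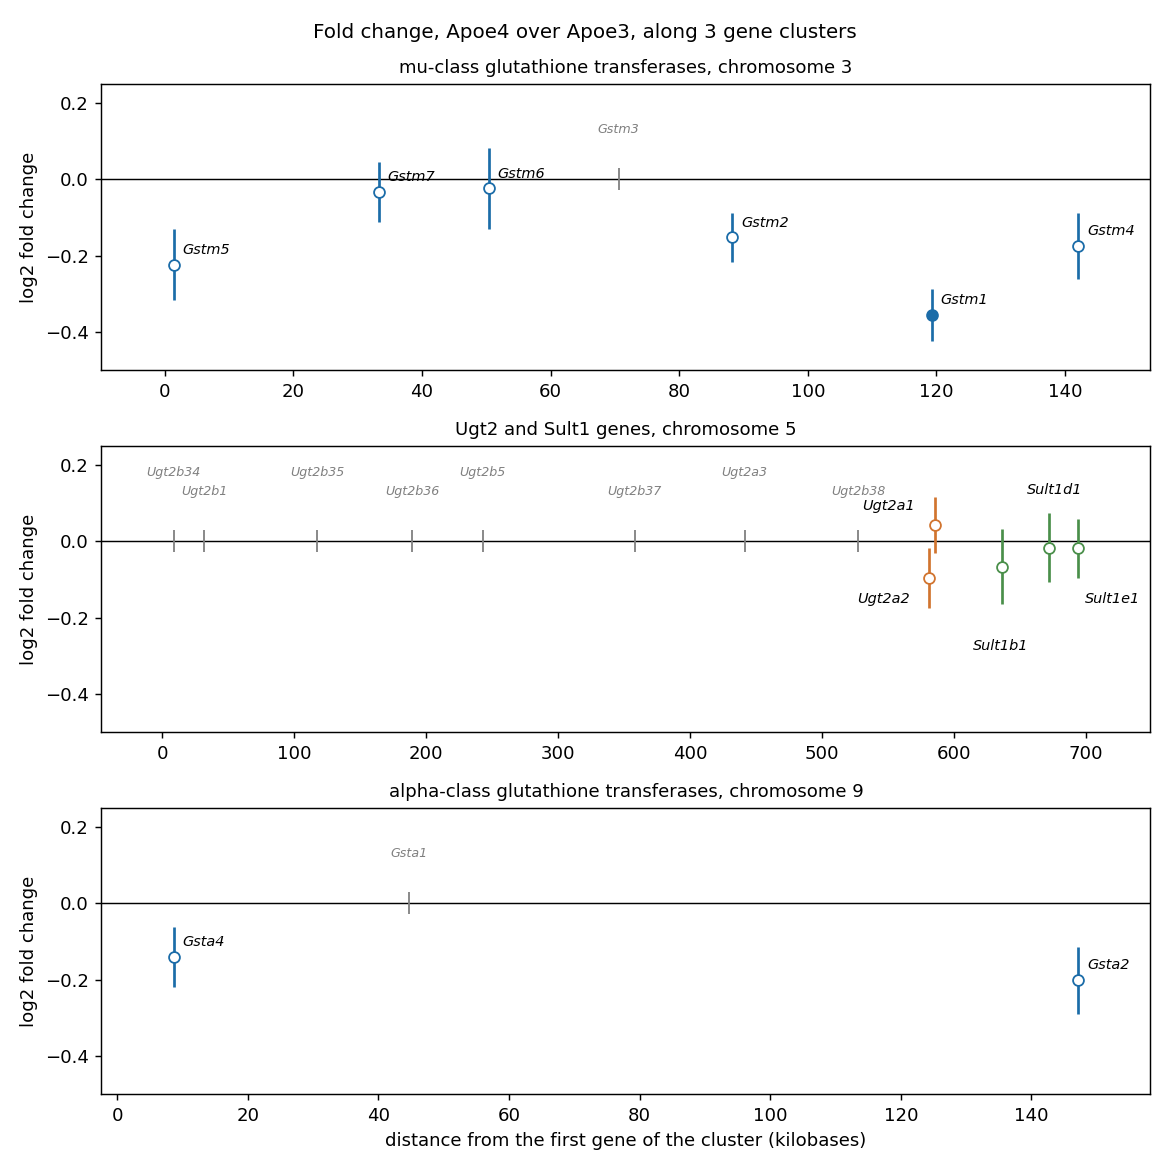
Log2 fold change (Apoe4 over Apoe3, bars of 1 SE) against distance in kilobases from the first gene, for the mu-class genes of chromosome 3, the Ugt2 and Sult1 genes of chromosome 5 and the alpha-class genes of chromosome 9. Filled points have an adjusted p under 0.05, grey ticks at 0 mark genes not tested, and Gstm1 at -0.36 is the only filled point.

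Microsomal glutathione transferases sit in membranes and also reduce lipid peroxides. Mgst3 (chromosome 1, 167371966 to 167393841, GRCm38, protein coding) had a mean of 2385.2 normalized counts in the authors' deposited table. It also fell in Apoe4, where the authors' deposited table gives a log2 fold change of -0.32 ± 0.09 (BH-adjusted p = 0.0402), which implies 2170.98 normalized counts in Apoe4 and 2706.6 in Apoe3. This call was lost with no filter on the mean (BH-adjusted p = 0.0508), with Benjamini-Yekutieli adjustment (adjusted p = 0.413) and with a trend on transcript length removed in either of 2 ways (BH-adjusted p = 0.298 and 0.549). Mgst1, at 1.96 times the level of Mgst3 per kilobase, stood at -0.22 ± 0.08 in the authors' deposited table and did not pass (BH-adjusted p = 0.197). Mgst2 was scarce, with a mean of 133.2 normalized counts and a log2 fold change of -0.02 ± 0.11 in the authors' deposited table (BH-adjusted p = 0.961). Of the 3 membrane enzymes, 1 passed.

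The bases upstream of the start sites of Gstm1 and Mgst3, the genes that changed, are shown beside those of Gstm5 and Mgst1, the closest members by fold of the same families. Each run is the 250 bases before the outermost start site, 5′ to 3′ on the gene's strand, from the RefSeq promoter table for GRCm38.p6. Capitals mark the antioxidant response element, a motif bound by NRF2, searched as TGACNNNGC on both strands. The motif has no match in the runs of Gstm1 and Mgst3, and 1 match each in those of Gstm5 and Mgst1, that of Mgst1 on the other strand.
Gstm1, chr3:108017974-108018223, minus strand: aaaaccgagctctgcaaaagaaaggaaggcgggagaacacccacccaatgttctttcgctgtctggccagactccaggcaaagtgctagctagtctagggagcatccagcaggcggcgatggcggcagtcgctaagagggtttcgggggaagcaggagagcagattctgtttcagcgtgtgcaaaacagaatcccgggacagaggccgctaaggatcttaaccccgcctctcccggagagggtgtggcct
Mgst3, chr1:167393842-167394091, minus strand: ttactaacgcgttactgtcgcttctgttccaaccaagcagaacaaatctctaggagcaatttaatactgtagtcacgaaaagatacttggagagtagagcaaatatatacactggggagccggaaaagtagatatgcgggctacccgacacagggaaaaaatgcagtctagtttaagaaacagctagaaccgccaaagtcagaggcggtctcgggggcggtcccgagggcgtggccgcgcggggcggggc
Gstm5, chr3:107895604-107895853, plus strand: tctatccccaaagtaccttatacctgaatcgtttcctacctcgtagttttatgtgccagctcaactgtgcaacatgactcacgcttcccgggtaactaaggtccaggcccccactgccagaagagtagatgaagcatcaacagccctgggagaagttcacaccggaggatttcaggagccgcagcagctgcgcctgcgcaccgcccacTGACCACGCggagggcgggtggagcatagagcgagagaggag
Mgst1, chr6:138140277-138140526, plus strand: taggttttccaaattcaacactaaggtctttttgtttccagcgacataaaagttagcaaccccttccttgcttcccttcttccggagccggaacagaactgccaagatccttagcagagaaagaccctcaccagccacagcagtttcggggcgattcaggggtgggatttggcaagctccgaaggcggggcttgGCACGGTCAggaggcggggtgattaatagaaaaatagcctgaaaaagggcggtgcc

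Over windows from 250 bases before to 50 after the start, 57 of the 65 genes had at least 1 promoter in the RefSeq table. The motif lay in a promoter of 4 of the 20 tested glutathione transferases with a promoter there, namely Gsta3, Gstm5, Gstm7 and Mgst1. Counted by gene, this is 20% of these 20 and 11.8% of the 34 tested members with a promoter, beside 16.3% of 12198 tested genes. Counted by promoter, it is 13.3% for the tested glutathione transferases and 8.70% for the tested members, beside 13.9% for tested genes and 12.4% for all 32851 promoters. The dioxin response element, a motif of the aryl hydrocarbon receptor searched as TNGCGTG on both strands, lay in promoters of Gsta2 and Gstcd among the tested glutathione transferases, 10% of them by gene, beside 8.82% of the tested members and 8.36% of tested genes. By promoter the shares were 6.67%, 6.52% and 7.06%, and 5.07% for all promoters. Among the other tested members only Sult1d1 held it, and the untested Ugt1a5 did as well. A match describes letters in a window and shows no binding.

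Alpha-class enzymes reduce organic hydroperoxides, and Gsta4 is known for conjugating 4-hydroxynonenal, a product of lipid peroxidation. None of the 3 tested passed. In the authors' deposited table Gsta2 stood at -0.20 ± 0.09 (BH-adjusted p = 0.389), Gsta3 at -0.15 ± 0.08 (BH-adjusted p = 0.485) and Gsta4 at -0.14 ± 0.08 (BH-adjusted p = 0.524). Gsta4 was the most abundant of them, at 2516.1 normalized counts per kilobase, and Gsta1 had 7 reads over all 10 libraries. Stretches of 150 bases, the read length in the labels, were shared with other genes along 26.8% of Gsta2 and 73.7% of Gsta1. Reads of both transcripts could thus have been split or dropped in counting.

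Pi, theta, omega, kappa and zeta classes had no gene past the test. Gstp1, the pi-class enzyme, stood at -0.14 ± 0.09 in the authors' deposited table (BH-adjusted p = 0.614). Its neighbour Gstp2, at 0.00 ± 0.08 (BH-adjusted p = 0.995, from the authors' deposited table), had a level per kilobase 41.6 times lower, and the transcripts share 41.8% of the 150-base stretches of Gstp1. The theta-class genes Gstt1, Gstt2 and Gstt3 had log2 fold changes of -0.14, -0.11 and -0.09 in the authors' deposited table, with BH-adjusted p from 0.665 to 0.74, and Gstt4 had 3 reads in all. Gstk1, the mitochondrial and peroxisomal kappa enzyme, was at -0.16 ± 0.09 (BH-adjusted p = 0.514) in the authors' deposited table. Gstz1, which breaks down tyrosine metabolites, was at -0.14 ± 0.08 there (BH-adjusted p = 0.551).

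Omega-class enzymes, which reduce dehydroascorbate and arsenic compounds, pointed in different directions. Gsto1 had a log2 fold change of -0.09 ± 0.10 in the authors' deposited table (BH-adjusted p = 0.798). Gsto2, beside it on chromosome 19, had 0.23 ± 0.10 (BH-adjusted p = 0.382), the most positive fold among the 38 genes in the authors' deposited table. Gsto2 had only 32.8 normalized counts, a level per kilobase 34.8 times below that of Gsto1. Undoing the shrinkage approximately gave 0.69 ± 0.30 for Gsto2, beside -0.40 ± 0.08 for Gstm1, so their shrunken folds do not compare in size. Gstcd, which carries a C-terminal domain of the family, stood at 0.09 ± 0.10 in the authors' deposited table (BH-adjusted p = 0.795). Neither positive fold passed the test.

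None of the 7 tested UDP-glucuronosyltransferases passed the test. Ugt2a1 (chromosome 5, 87459490 to 87490871), with the highest mean of all 65 genes at 32486.1 normalized counts, had a log2 fold change of 0.04 ± 0.07 in the authors' deposited table (BH-adjusted p = 0.886). Ugt2a2, which overlaps the Ugt2a1 locus, stood at -0.10 ± 0.08 in the authors' deposited table (BH-adjusted p = 0.709). The Ugt2a1 and Ugt2a2 transcripts share their later exons, and 67.1% of the 150-base stretches of Ugt2a1 also occur in Ugt2a2. With the annotated gene Gm43638 counted too, 92.8% of the Ugt2a1 and 94.3% of the Ugt2a2 stretches are shared, so the split of reads among these genes is uncertain. The other 8 Ugt2 genes, among them the Ugt2b genes known as steroid-conjugating enzymes of liver, were not tested, with means up to 4.12 normalized counts, and Ugt2b35 and Ugt2b37 were listed at 0.

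Ugt1a genes also share their last exons and differ in the first. In the authors' deposited table Ugt1a7c had a mean of 472.8 normalized counts and a log2 fold change of -0.07 ± 0.09 (BH-adjusted p = 0.838), and Ugt1a6a had 125.0 and -0.07 ± 0.10 (BH-adjusted p = 0.854). Ugt1a6b stood at 0.01 ± 0.09 and Ugt1a1, the bilirubin enzyme, at -0.05 ± 0.08 there (BH-adjusted p = 0.981 and 0.873). Ugt1a9 and Ugt1a10 had a single read each over all libraries, Ugt1a5 had 2 and Ugt1a2 had 3. Between 32.5% and 68.4% of the 150-base stretches of these transcripts occur in another Ugt1a gene, so the counts may hold only reads of the first exons. Ugt8a, which makes the galactosylceramide of myelin, stood at -0.03 ± 0.09 in the authors' deposited table (BH-adjusted p = 0.939), and Ugt3a1 and Ugt3a2 had 3 and 7 reads in all.

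Sulfotransferases had negative folds in all 9 genes tested, beside 48.9% of all tested genes, and none passed. With a trend on transcript length removed from the folds, 6 of the 9 were negative. Sult6b1, of a branch with little known function, had the lowest at -0.25 ± 0.09 in the authors' deposited table (BH-adjusted p = 0.226). The most abundant, Sult1c1 (chromosome 17, 53961615 to 53990631), had a mean of 12705.8 normalized counts and a log2 fold change of -0.09 ± 0.09 in the authors' deposited table (BH-adjusted p = 0.756). Sult1d1, a catecholamine-conjugating enzyme of mice, and Sult1e1, the oestrogen sulfotransferase, both stood at -0.02 in the authors' deposited table (BH-adjusted p = 0.967 and 0.957). Sult1a1, the phenol sulfotransferase, was at -0.10 ± 0.10 and Sult1b1 at -0.07 ± 0.10 there (BH-adjusted p = 0.77 and 0.862).

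Sult4a1, a sulfotransferase of neurons, was at -0.07 ± 0.08 in the authors' deposited table with a mean of 2932.1 normalized counts (BH-adjusted p = 0.809). Sult5a1 stood at -0.06 ± 0.10 and Sult2b1, the cholesterol sulfotransferase, at -0.00 ± 0.10 in the authors' deposited table (BH-adjusted p = 0.874 and 0.9999). The Sult2a genes, hydroxysteroid sulfotransferases of liver, were not tested, nor were Sult1c2, with a mean of 1.32 normalized counts in the authors' deposited table, and Sult3a1, listed at 0. Of the 8 of them, 4 were listed at 0, and Sult2a8 was highest with a mean of 1.64 normalized counts in the authors' deposited table.

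Side by side, the median log2 fold change was -0.14 over 22 tested glutathione transferases, -0.07 over 9 sulfotransferases and -0.05 over 7 UDP-glucuronosyltransferases. Negative folds numbered 19 of 22, 9 of 9 and 5 of 7, and 17, 6 and 5 with the length trend removed. Summed over tested genes, the fold-implied counts of the glutathione transferases were 41209.6 in Apoe4 and 48700.7 in Apoe3, a difference of -15.4%. For sulfotransferases the sums were 25709.8 in Apoe4 and 26950.1 in Apoe3, and for UDP-glucuronosyltransferases 35615.4 in Apoe4 and 34816.8 in Apoe3. The largest part of each sum came from 1 gene, Gstm1, Sult1c1 and Ugt2a1 in that order of the sums. The differences between the 3 types were not tested.

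Transcript length moved with the folds. The longest transcripts of the 38 genes had a median of 1782.5 bases, against 3341 bases over all tested genes, and that of the glutathione transferases was 1235.5 bases. With tested genes split by length into 10 bins, the shortest bin reached 1417 bases, and there 76.3% of genes had a negative fold and the median log2 fold change was -0.08. This bin held 17 of the 38 genes, of which 15 were negative and 12 lay below its median. Among 4258 tested genes in the length range of the middle part of the 38, 68.8% were negative. Over all 38, 28 lay below the median of their own bin. Of these 28, 17 were glutathione transferases, a type that made up 22 of the 38.

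With a smooth length trend taken away, the median log2 fold change became -0.07 for glutathione transferases, -0.04 for UDP-glucuronosyltransferases and -0.04 for sulfotransferases, and -0.05 for all 38. For the adjusted p-values, the trend was taken from the test statistics and not from the folds. By these, Gstm1 still passed (BH-adjusted p = 0.00269, or 0.0147 with the trend taken separately for low and high means). Mgst3 did not pass under either. With the single trend removed from the folds, the log2 fold change was -0.28 for Gstm1 and -0.24 for Mgst3. In the shortest bin of 1598 genes, 8 had a lower fold than Gstm1 and 16 a lower fold than Mgst3. The part of length in the folds of the conjugating enzymes was not tested beyond this.

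**Figure D4:**
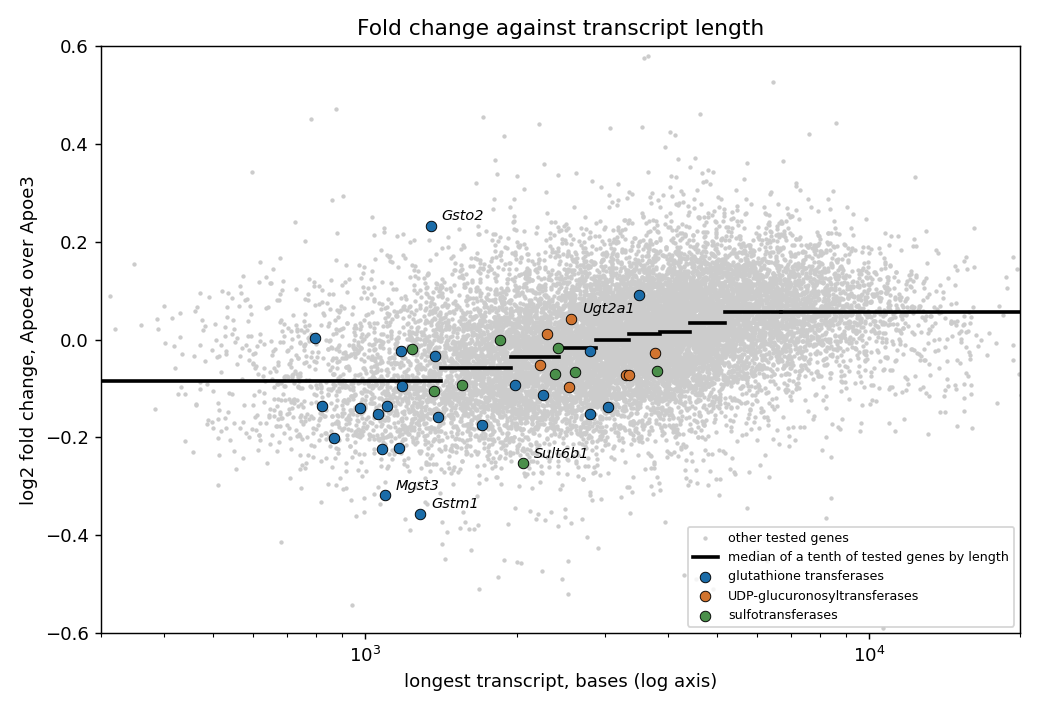
Log2 fold change (Apoe4 over Apoe3) against the longest transcript in bases (log axis) for all tested genes in grey and the 38 tested conjugating enzyme genes in colour, with black lines at the median of each of the 10 length bins. Genes beyond 0.6 in either direction are outside the frame, the black lines climb from -0.08 to 0.06, and Gstm1, Mgst3 and Sult6b1 lie furthest below them.

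No gene of the pathways that feed the conjugating enzymes passed the test. None of 9 genes of glutathione synthesis and recycling passed, with a median log2 fold change of -0.03, among them Gclc, the rate-limiting enzyme, at 0.01 ± 0.07 and Gsr, glutathione reductase, at -0.05 ± 0.07 in the authors' deposited table (BH-adjusted p = 0.964 and 0.853). Chac2 and Chac1, which degrade glutathione, had the smallest p of this list, each at -0.14 in the authors' deposited table (BH-adjusted p = 0.576 and 0.67). Of 5 genes that supply UDP-glucuronate none passed (median -0.02), with Slc35d2 at -0.16 and Slc35d1 at 0.09, both nucleotide sugar transporters, in the authors' deposited table (BH-adjusted p = 0.612 and 0.703). Ugdh, which makes UDP-glucuronate, was at 0.05 ± 0.06 there (BH-adjusted p = 0.795). Of 8 genes of sulfate and PAPS supply none passed (median -0.02), with Slc35b2 and Slc35b3, the PAPS transporters, both at -0.12 in the authors' deposited table (BH-adjusted p = 0.656 and 0.674).

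Steps after conjugation and conjugating enzymes of other kinds gave no call either. Of 8 tested genes of glutathione conjugate breakdown, Dpep1, a dipeptidase, was lowest at -0.27 ± 0.10 in the authors' deposited table (BH-adjusted p = 0.26), and Ggt7 stood at -0.10 (BH-adjusted p = 0.562). Of 6 tested exporters, 5 had positive folds (median 0.02), and none passed. Their longest transcripts had a median of 5716 bases. With the length trend removed, 5 of the 6 exporters were negative, with a median of -0.02. Abcc4, a multidrug resistance protein, was at 0.05 ± 0.07 in the authors' deposited table (BH-adjusted p = 0.881). Of 8 other conjugating enzymes the smallest p belonged to Hnmt, which methylates histamine, at 0.17 ± 0.10 and to Inmt at -0.12 ± 0.10 in the authors' deposited table (BH-adjusted p = 0.589 and 0.735). Among 6 tested genes of deconjugation, the sulfatase Arsa was at 0.11 and Gusb, the beta-glucuronidase, at 0.09 in the authors' deposited table (BH-adjusted p = 0.62 and 0.672).

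Regulators of conjugating enzymes numbered 11, of which 8 had positive folds (median 0.07), and none passed. Ahr, the aryl hydrocarbon receptor, had the smallest p at 0.16 ± 0.08 in the authors' deposited table (BH-adjusted p = 0.485), followed by Nfe2l2, which codes for NRF2, at -0.10 ± 0.06 (BH-adjusted p = 0.548). Keap1, the inhibitor of NRF2, stood at -0.04 ± 0.08 and Mafk, a partner of NRF2, at 0.15 ± 0.09 in the authors' deposited table (BH-adjusted p = 0.9 and 0.576).

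**Figure D5:**
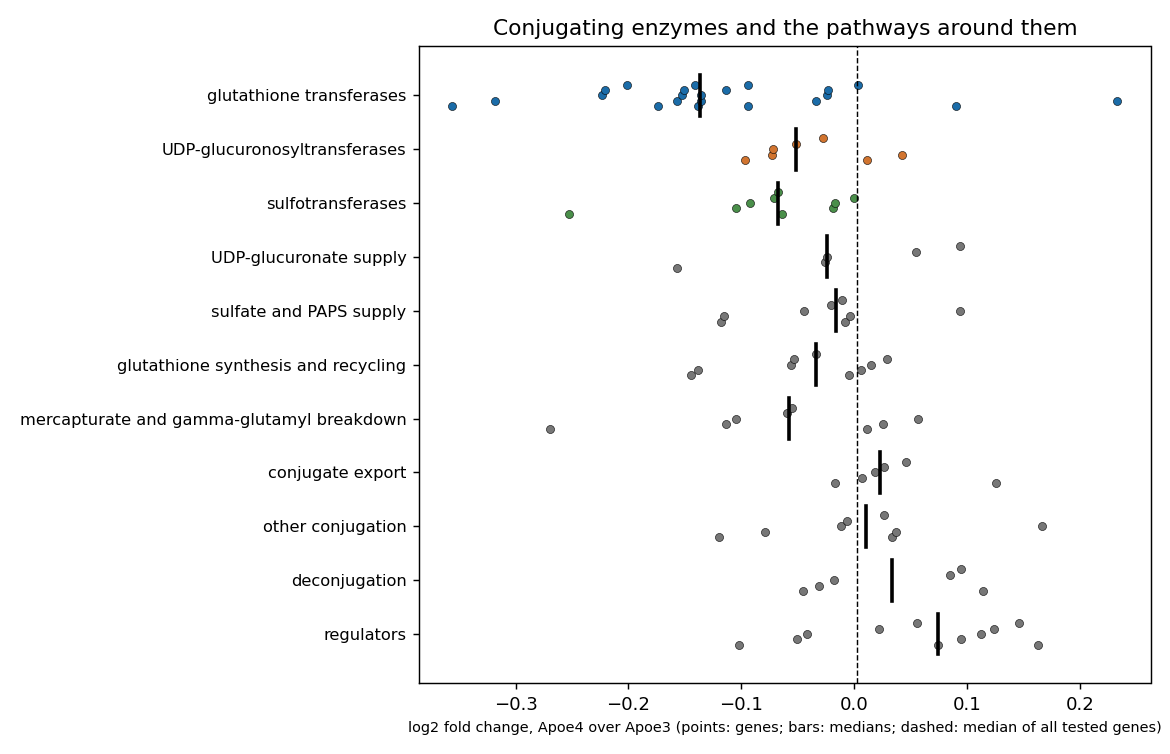
Log2 fold change (Apoe4 over Apoe3, horizontal axis) of each tested gene in the 3 enzyme types and in 8 lists of genes around them, with black bars at the medians and a dashed line at the median of all tested genes. The glutathione transferases have the lowest median, -0.14, and the regulators the highest, 0.07.

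Markers of the cell types that hold these enzymes are given beside the folds. Over all tested genes, 0.455% were called lower and 0.324% higher, and 48.9% had a negative fold. Of 10 sustentacular markers, 2 fell in Apoe4, Aldh1a7 at -0.27 ± 0.06 and Cbr2 at -0.26 ± 0.07 in the authors' deposited table (BH-adjusted p = 0.00172 and 0.0421). Of the 10, 8 were negative, with a median of -0.10 and a range from -0.27 to 0.08. Their longest transcripts had a median of 1949 bases, and with the length trend removed 7 were negative, with a median of -0.07. The fold-implied sum of the 10 was 218281 normalized counts in Apoe4 and 236239 in Apoe3. Sec14l3 stood at -0.08 ± 0.05 and Cyp1a2 at 0.08 ± 0.07 in the authors' deposited table (BH-adjusted p = 0.617 and 0.73). Of 6 Bowman gland markers, 1 rose, Bpifb4 at 0.34 ± 0.07 (BH-adjusted p = 0.000282, from the authors' deposited table). Of the 6, 4 were positive and 2 negative, with a median of 0.05 and a range from -0.18 for Muc5b to 0.34. Their fold-implied sum was 202900 normalized counts in Apoe4 and 185536 in Apoe3, of which Bpifb4 made up 63138.9 in Apoe4 and 50045.2 in Apoe3. Of the other marker lists, 1 of 4 immature neuron markers rose (Dpysl3 at 0.24 ± 0.06, BH-adjusted p = 0.0272, from the authors' deposited table), and none of 8 mature neuron, 3 basal, 4 ciliated, 4 macrophage and 3 tested hepatocyte markers passed. Both tested erythroid markers fell, Alas2 at -0.46 ± 0.10 and Slc4a1 at -0.27 ± 0.06 in the authors' deposited table (BH-adjusted p = 0.00337 and 0.00509). Alas2 lies on the X chromosome. Hba-a1 and Hbb-bs were listed at 0, and whether their reads were lost in counting was not tested. The share of any cell type in the fall of Gstm1 and Mgst3 was not tested.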

How the data were processed

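Poly(A)-selected RNA of 10 samples was read as 150-base pairs on a NovaSeq instrument, per the labels' protocols. Per the submitters' processing notes STAR, featureCounts, DESeq2 and GRCm38 were used; versions, strand setting and annotation are not named there. The authors deposited 1 table: a mean signal (normalized count over all libraries), a log2 fold change with its log2 error, a score (the Wald statistic), and a p-value with its adjusted value, a filter leaving out means under 10. The error has a ceiling of 0.105, so folds were shrunk by a prior, and p-values equal the normal p of the score. Nothing in the labels says which samples were prepared together.

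No label in the table says which group is on top of its folds. Genes with a single read took 10 levels of the mean, 6 with positive and 4 with negative folds, which matches 6 Apoe4 and 4 Apoe3 libraries, so positive is higher in Apoe4. These levels also gave estimated library sizes, taking the same normalized total in each library. For means under 1 they gave whole reads over all libraries. Unshrunken folds came from the ratio of each error to its ceiling. Fold-implied counts split each mean by the shrunken fold and carry no error of their own.

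Single-gene tests are the authors'. Trends on log2 length (longest GENCODE vM21 transcript) were lowess curves with a fraction of 0.3 (statsmodels 0.14.6, Python 3.11.15). They were fitted to the folds for trend-removed folds, and to the Wald statistics for trend-removed p-values. Positions and promoters are from RefSeq for GRCm38.p6; all 65 symbols matched. Sts had no row and is not analysed here. Members and lists were chosen with earlier results of these data known. All tested members are named. From each pathway list, genes past the test or else the 2 of smallest p were named, except 1 that is not reported here; Ugdh, Gclc, Gsr, Keap1, Mafk, Sec14l3, Cyp1a2 and Hpgds were added after their values were seen. P-values set the difference between the groups against a modelled spread between these libraries.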

Additional observations from a re-analysis of the deposited data

How the results depend on the processing

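The count of conjugating enzyme genes called lower was 2, and 1 (Gstm1) with no filter on the mean, with Benjamini-Yekutieli adjustment, and with the length trend removed in either way. It was 0 in a test against a 1.2-fold change made on the shrunken folds, a test that 20 of all genes passed; shrinkage understates these folds. It stayed 2 with means of at least 50, centred on the median, and without X and Y genes. Leaving out X and Y genes changed only the BH adjustment, so this setting cannot separate allele from the sex-linked difference. None was called higher in any of these settings. Mgst3 had adjusted p of 0.0508 with no filter, 0.413 with Benjamini-Yekutieli adjustment, 0.298 and 0.549 with length trends removed, 1 in the fold test, and 0.036 to 0.0433 in the other settings. No gene of the 8 pathway lists was called in any setting. The median log2 fold change of tested members was -0.09, and -0.13 with unshrunken folds, -0.03 over every member with a p-value, -0.10 with means of at least 50, -0.05 with the length trend removed and -0.10 centred. Over the single-gene values, 292 kept their side of the threshold, and 6 lost a call, 5 of Mgst3 and 1 of Gstm1 (fold test). With the median transcript length, chosen after seeing the data, Gstm1 stood at 18707.9, Mgst1 at 6010.38 and Gstm2 at 6496.31 normalized counts per kilobase. No paired analysis was possible because the table gives no values per library, and leaving out each replicate was not run for the same reason.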

Other observations

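Relatives of the conjugating enzymes outside the name rule were looked at in lists written after the table was opened. Of 10 genes whose proteins are related to the cytosolic glutathione transferases, none passed, and 6 had negative folds. Clic3 stood at -0.25 and Clic6 at 0.16, both chloride intracellular channel proteins, in the authors' deposited table (BH-adjusted p = 0.344 and 0.411), and Hpgds, the sigma-class prostaglandin D synthase, at -0.03 (BH-adjusted p = 0.94). The listed membrane relatives of the microsomal enzymes were Ltc4s, Alox5ap and Ptges, which take part in making leukotrienes and prostaglandins. They had log2 fold changes of -0.14, -0.01 and 0.09 in the authors' deposited table, with BH-adjusted p from 0.666 to 0.988. Of 18 Golgi sulfotransferases, which sulfate proteins and sugar chains and not small molecules, 12 were positive, with a median of 0.06, and none passed. Chst1 stood at 0.23 and Tpst2 at -0.20 in the authors' deposited table (BH-adjusted p = 0.435 and 0.393).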
